A study of Homo sapiens with 4 samples.

Results

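Genes of the cell cycle and of DNA replication were followed in UM-UC-3, a line of human bladder cancer cells long in culture, on 4 arrays. The genes were a named list of 49, and 48 of them had at least 1 probe set annotated to that gene alone, out of 19775 genes so named on the array. CDKN2C had none, and no value is given for it. The 48 genes were read by 108 such probe sets, and each gene is described by whichever of its probe sets had the highest mean over the 4 arrays, with the others beside it. The control line, GFP, carried green fluorescent protein from an empty vector; the other line, GFP-RhoGDI2, carried GFP fused to RhoGDI2, the product of ARHGDIB, described by the series as a metastasis suppressor. Both were stable transfectants sorted by fluorescence, and a puromycin selection was used per the labels. Each line was profiled in 2 preparations, A and B, made at different times and paired across the lines, from cells in log phase growth. One descriptive label of the GFP-RhoGDI2 samples speaks of the control transfection, but their titles and remaining labels name GFP-RhoGDI2, which was used. Each line may differ from the other in anything that arose when it was made, and the labels do not say if A and B go back to separate transfections. With preparation as a block, the p-values rest on how far the line difference varied between A and B, drawn towards a variance shared by all tested probe sets. They do not measure the spread between separately made lines.

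A dividing cell licenses its replication origins in G1 by loading the MCM2 to MCM7 helicase with CDC6 and CDT1, copies its DNA in S phase, and separates the copies in mitosis with the spindle, its kinases and its checkpoint. Cyclins and cyclin-dependent kinases (CDKs) drive these steps. D-type cyclins with CDK4 or CDK6, and then cyclin E with CDK2, phosphorylate the RB1 protein, which frees E2F transcription factors to turn on replication genes. MYBL2 and FOXM1 later turn on mitotic genes. Many of these transcripts therefore follow the share of cells in each phase, and a change in that share cannot be told apart here from a change within each cell, since the arrays read bulk RNA.

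The promoters of these genes carry short letters through which E2F, the DREAM and MuvB complexes (the CHR element) and NF-Y (the CCAAT box) are known to act. RefSeq promoters (GRCh38.p14) were matched for 38 of the 49 genes, 51 promoters in all, and the 250 bases before the start were searched on both strands, each motif counted on its own. The E2F letters TTTCCCGC were in 13.7% of them and in 1.39% of all 35116 promoters, TTTGGCGC in 3.92% against 0.55%, the CHR letters TTTGAA in 23.5% against 13.3%, and CCAAT in 66.7% against 32%. Both TTTGAA and CCAAT were in 21.6% against 4.69%. These are matches of letters and not shown to be sites. The 200 bases before the start are printed 5′ to 3′ for 2 licensing genes with E2F letters, for 3 genes chosen among those with TTTGAA for their higher values in preparation B, and for CENPE, with matches on either strand in capitals. They lie at chr16:88803589-88803788 (plus strand), chr6:52284743-52284942 (minus), chr10:60778278-60778477 (plus, the promoter of CDK1 with more matches), chr17:40417897-40418096 (minus), chr15:69414149-69414348 (plus) and chr4:103198344-103198543 (minus).
CDT1: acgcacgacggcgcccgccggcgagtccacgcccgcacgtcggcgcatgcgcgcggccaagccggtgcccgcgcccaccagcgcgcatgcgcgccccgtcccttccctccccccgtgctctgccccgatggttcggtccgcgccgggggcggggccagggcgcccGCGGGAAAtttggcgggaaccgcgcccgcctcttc
MCM3: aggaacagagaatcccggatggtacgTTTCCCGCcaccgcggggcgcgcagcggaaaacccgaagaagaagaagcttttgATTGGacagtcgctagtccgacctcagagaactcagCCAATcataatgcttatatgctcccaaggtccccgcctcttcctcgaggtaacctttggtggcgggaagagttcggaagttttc
CDK1: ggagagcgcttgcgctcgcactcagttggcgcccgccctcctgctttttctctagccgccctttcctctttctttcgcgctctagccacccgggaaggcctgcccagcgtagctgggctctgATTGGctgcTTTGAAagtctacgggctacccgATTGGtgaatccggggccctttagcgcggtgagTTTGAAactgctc
TOP2A: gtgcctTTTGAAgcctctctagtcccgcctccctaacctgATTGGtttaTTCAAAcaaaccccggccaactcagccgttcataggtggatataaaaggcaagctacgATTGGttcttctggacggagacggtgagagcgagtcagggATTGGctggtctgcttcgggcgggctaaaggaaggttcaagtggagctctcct
KIF23: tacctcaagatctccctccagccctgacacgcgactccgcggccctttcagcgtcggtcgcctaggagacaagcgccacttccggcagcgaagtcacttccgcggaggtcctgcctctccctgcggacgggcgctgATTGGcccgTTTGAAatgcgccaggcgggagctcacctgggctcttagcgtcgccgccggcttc
CENPE: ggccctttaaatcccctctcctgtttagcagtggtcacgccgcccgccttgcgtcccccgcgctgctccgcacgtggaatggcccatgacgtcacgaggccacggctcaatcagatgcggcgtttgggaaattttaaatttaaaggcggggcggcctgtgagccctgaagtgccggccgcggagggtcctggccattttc

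CDT1 and MCM3 carry TTTCCCGC, on the minus and the plus strand of the gene. CDK1, TOP2A and KIF23 carry TTTGAA beside CCAAT, which reads ATTGG on the other strand. The CENPE window holds none of the letters searched. CCNA2, also higher in B on the probe set that stands for it, has a CCAAT match and no TTTGAA, and is not printed.

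The introduced gene was as labelled: ARHGDIB read 6.51 (A) and 6.27 (B) in GFP against 11.94 and 11.58 in GFP-RhoGDI2, while its other probe sets differed by 0.94 and -0.02. Values are log2 expression, the filter kept probe sets whose mean was at or above 4.637, and 12123 genes were tested with limma. Of 13 urothelial and epithelial markers 5 passed the filter, among them KRT8 and KRT18, while EPCAM, CDH1, KRT19 and the 4 uroplakin genes UPK1A, UPK1B, UPK2 and UPK3A did not. All 5 mesenchymal markers passed it. Of the blood and endothelial lists, 1 of 5 and 1 of 3 measured markers passed, HBB and PECAM1, and PTPRC, CD14, CD3E and CDH5 were below it on average. The summed level of the epithelial list was 13.72 on both GFP arrays and 13.10 to 13.13 in GFP-RhoGDI2, and that of the mesenchymal list 13.85 to 13.98 and 14.08 to 14.13. KRT18 carries most of the epithelial sum. PPARG passed the filter only through its level in GFP-RhoGDI2 (5.85 and 5.77), with both GFP arrays below it (4.46 and 4.61). Of these markers KRT8 (-1.23) and KRT18 (-0.59) fell in GFP-RhoGDI2, and PPARG (1.27), SNAI2 (2.03) and CDH2 (0.68) rose (limma). The part of these differences in the results below was not tested.

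The differences of the cell cycle and replication genes between the lines were about as large as those of all genes. Their median size was 0.133, beside 0.141 over all genes tested. All 48 passed the filter, and CENPE was the 1 gene called at an adjusted p under 0.05, lower in GFP-RhoGDI2 (limma, Benjamini-Hochberg over all probe sets tested). That is 2.08% of the 48, where 8.17% of all 12123 genes were called; 3.35% of all genes were called lower and 4.83% higher. At an unadjusted p under 0.05 there were 9 of the 48, or 18.8%, against 27.1% of all genes; 8 were lower and 1 higher, against 14% and 13.1%. No gene of the 48 differed by 2-fold, as 1.67% of all genes did, and the 95% intervals of all 48 lay within 2-fold of no difference, as did those of 96.7% of all genes. Those of 43 lay within 1.5-fold, against 82.4% of all genes. CCND1, CCND2, CCNE1, CENPE and KIF20A were the exceptions. These intervals are not adjusted for the number of genes.

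What differences there were leaned towards lower values in GFP-RhoGDI2. The median difference of the 48 was -0.12 on the log2 scale (-0.05 in preparation A and -0.08 in B), beside -0.01 over all genes. Preparations A and B both gave a lower value for 24 genes (37.7% of all genes tested did so) and both a higher value for 12 (33.7%). Both GFP-RhoGDI2 arrays lay below both GFP arrays for 20 genes, or 41.7%, against 29% of all genes, and above them for 5, or 10.4%, against 25.6%. In the other 23 the arrays of the lines overlapped. Across the 48 genes the difference in A and that in B had a Pearson correlation of 0.603, a description over genes that share arrays. The size of the median depends on which probe set stands for a gene, and was -0.06 when the probe sets of each gene were averaged and -0.04 without the _s_at and _x_at probe sets, whose probes may be shared between transcripts.

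**Figure D1:**
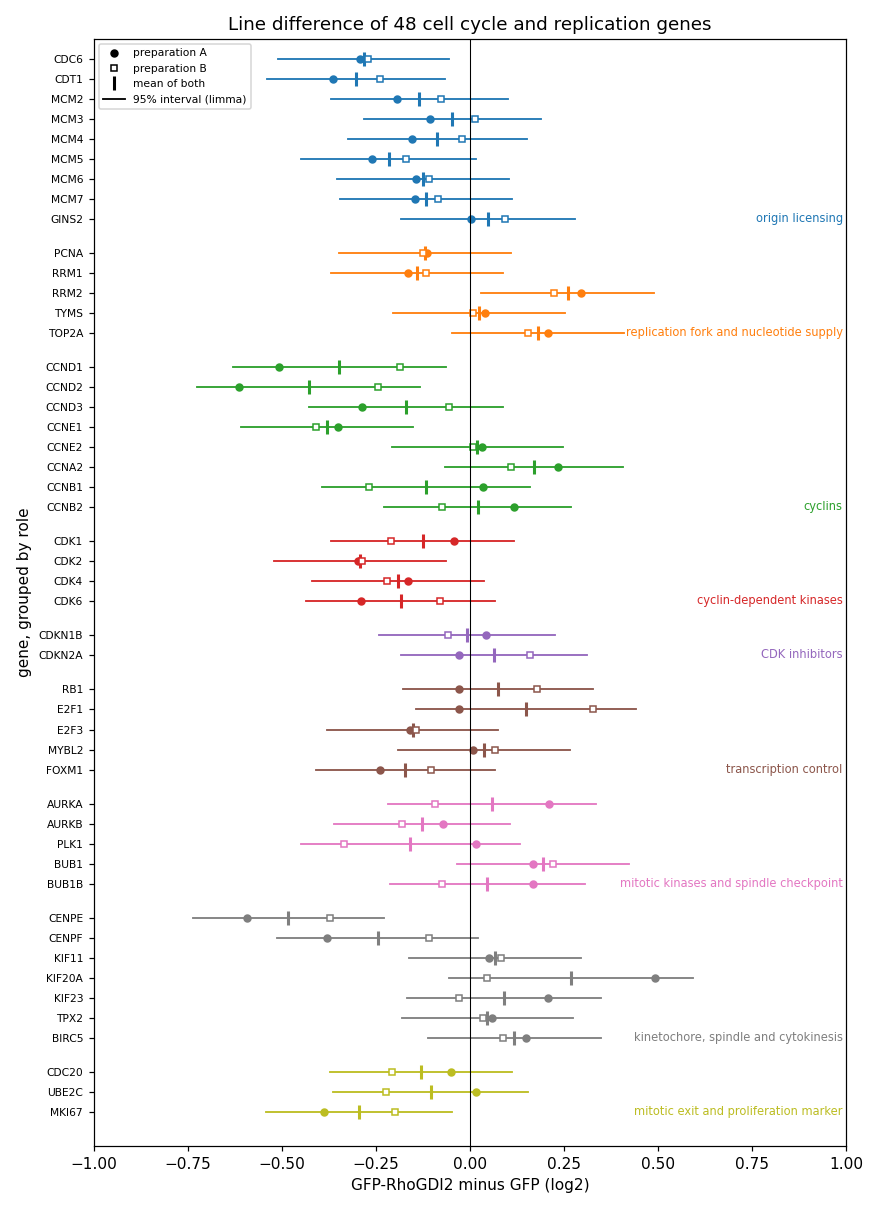
Difference between GFP-RhoGDI2 and GFP (log2, horizontal axis) for the 48 genes, grouped and coloured by role; filled circles are preparation A, open squares B, vertical ticks the mean and lines the 95% interval from limma. CENPE at -0.48 is the 1 called gene, and every interval stays within -1 to 1.

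Origin licensing showed low differences in most of its genes and no call. Of 9 genes, 7 were lower in GFP-RhoGDI2 in both preparations, and the median was -0.13. CDT1, which brings the helicase to the origin, read 8.94 and 8.66 on GFP A and B and 8.57 and 8.42 on GFP-RhoGDI2 A and B. Its difference was -0.30 (SE 0.095, adjusted p = 0.116, limma), and the lines did not overlap. The second CDT1 probe set differed by -0.16, with -0.33 in A and -0.0006 in B, and there the lines overlapped. CDC6, the ATPase that loads the helicase together with CDT1, read 9.21 and 9.13 in GFP and 8.91 and 8.85 in GFP-RhoGDI2. Its difference of -0.28 (SE 0.092) had an adjusted p of 0.124 in limma, and its second probe set differed by -0.35. MCM5, a helicase subunit, was at 10.28 and 10.10 and at 10.02 and 9.93, a difference of -0.22. The other helicase subunits lay closer together, at -0.14 for MCM2, -0.13 for MCM6, -0.12 for MCM7, -0.09 for MCM4 and -0.05 for MCM3. GINS2, part of the complex that activates the helicase and only grouped here with the licensing genes, had the 1 difference above 0, at 0.05.

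The genes of the replication fork and of nucleotide supply divided in sign. RRM2, the small subunit of ribonucleotide reductase, which makes deoxynucleotides, read 12.36 and 12.45 in GFP and 12.65 and 12.67 in GFP-RhoGDI2, a difference of 0.26 (SE 0.093, adjusted p = 0.151, limma). Both GFP-RhoGDI2 arrays lay above both GFP arrays, its other probe set differed by 0.22, and it was the 1 gene of the 48 higher at an unadjusted p under 0.05. RRM1, the large subunit of that enzyme, differed by -0.14 and its second probe set by 0.02. PCNA, the sliding clamp of the polymerases, read 12.69 and 12.81 against 12.58 and 12.68. Its difference was -0.12 (95% interval -0.35 to 0.11). TYMS, thymidylate synthase, differed by 0.02 (interval -0.20 to 0.25), and TOP2A, which untangles replicated DNA, by 0.18.

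The G1 cyclins CCND2, CCNE1 and CCND1 had the largest differences after CENPE, without a call on the probe sets that stand for them. CCND2, a D-type cyclin, read 11.04 and 10.53 in GFP and 10.43 and 10.28 in GFP-RhoGDI2, a difference of -0.43 (SE 0.120, adjusted p = 0.0902, limma). The GFP A array was the highest, and the lines did not overlap. A second CCND2 probe set, at 7.42 and 7.18 against 7.02 and 6.49, differed by -0.55 and passed the threshold (adjusted p = 0.0446, limma), while the others differed by -0.30 and 0.00. CCNE1, cyclin E1, read 8.88 and 8.67 against 8.53 and 8.26, a difference of -0.38 (SE 0.093, adjusted p = 0.0674, limma) that was about even in A (-0.35) and B (-0.41). CCND1, cyclin D1, read 11.64 and 11.27 against 11.13 and 11.08, a difference of -0.35 (adjusted p = 0.126, limma), and its second probe set differed by -0.53 (adjusted p = 0.0533). CCND3 differed by -0.17. The paralogue CCNE2 differed by 0.02 (interval -0.21 to 0.25). The S phase and mitotic cyclins were mixed, with CCNA2 at 0.17, CCNB2 at 0.02 and CCNB1 at -0.12, and CCNB1 was at 0.03 in A and -0.27 in B.

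On the probe sets that stand for them, all 4 CDKs were lower in GFP-RhoGDI2 in both preparations, with a median of -0.19 and no call. CDK2, the partner of cyclins E and A, read 9.70 and 9.73 in GFP and 9.40 and 9.45 in GFP-RhoGDI2. The difference was -0.29 (SE 0.092, adjusted p = 0.115, limma), with -0.30 in A and -0.29 in B, yet the further CDK2 probe sets differed by -0.09 and 0.13. CDK4 read 12.24 and 12.21 against 12.07 and 11.99, a difference of -0.19, and CDK6 differed by -0.18, with its 7 tested probe sets between -0.19 and 0.18. CDK1, the mitotic kinase, read 11.55 and 12.20 against 11.51 and 11.99. The preparations stand further apart than the lines, whose difference was -0.13. Its further probe sets differed by 0.02, 0.10 and 0.10, each higher in A and lower in B. Of the CDK inhibitors, CDKN1B (p27) read 10.64 and 10.78 against 10.68 and 10.72, a difference of -0.01 (interval -0.24 to 0.22). CDKN2A (p16 and ARF) was at 5.43 to 5.59 on the 4 arrays, with its other probe sets below the filter level, and no detection call was used to say whether it is above background.

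The regulators of transcription showed differences of both signs. RB1 differed by 0.07 on its main probe set and by 0.43 on the second (adjusted p = 0.0837, limma). E2F1 read 8.11 and 7.74 in GFP and 8.08 and 8.07 in GFP-RhoGDI2, so that its difference of 0.15 came from the low GFP B array, with -0.03 in A and 0.33 in B. E2F3 differed by -0.15 and MYBL2 by 0.04. FOXM1, the mitotic activator, read 10.74 and 10.61 against 10.50 and 10.50, a difference of -0.17 without overlap (adjusted p = 0.315, limma).

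Among the genes of mitosis, CENPE fell in the GFP-RhoGDI2 line. CENPE is a kinesin that carries chromosomes along the spindle to its middle. It read 9.0 and 9.34 on GFP A and B and 8.40 and 8.97 on GFP-RhoGDI2 A and B, a difference of -0.48 (SE 0.102, 95% interval -0.74 to -0.23, adjusted p = 0.0495, limma), or 1.40-fold lower. The GFP-RhoGDI2 A array was the lowest, and the lines did not overlap. It has 1 probe set here. Without the preparation block the call was lost (adjusted p = 0.235). With single arrays left out and no block, the difference was -0.20 without GFP-RhoGDI2 A, -0.31 without GFP B, -0.66 without GFP A and -0.77 without GFP-RhoGDI2 B, and none of these was called. CENPE lies on chromosome 4 (103105811 to 103198343, GRCh38.p14), and the 20 nearest tested genes had a median of 0.10 with 0 called, beside -0.01 over all genes.

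The other genes of the spindle and kinetochore had smaller differences. CENPF, a large kinetochore protein, read 10.56 and 10.55 against 10.18 and 10.44, a difference of -0.25, and its further probe sets differed by -0.35 and -0.18. KIF20A, a kinesin of cell division, read 11.02 and 11.07 against 11.51 and 11.11; its difference of 0.27 came largely from the GFP-RhoGDI2 A array, with 0.49 in A and 0.05 in B. The spindle motor KIF11 differed by 0.07, the cytokinesis motor KIF23 by 0.09, the spindle assembly factor TPX2 by 0.05 and BIRC5, survivin of the chromosomal passenger complex, by 0.12. Of the kinases and checkpoint genes, BUB1 read 10.40 and 10.38 against 10.56 and 10.60, a difference of 0.19 without overlap (adjusted p = 0.250, limma). AURKA and BUB1B were higher in A and lower in B, at 0.21 and -0.09 and at 0.17 and -0.07. PLK1 was at 0.02 and -0.33, and AURKB, the kinase of the passenger complex, at -0.07 and -0.18. CDC20 and UBE2C, which serve the ubiquitin ligase that ends mitosis, differed by -0.13 and -0.10. MKI67, the Ki-67 antigen used to mark dividing cells, read 10.59 and 10.50 in GFP and 10.21 and 10.30 in GFP-RhoGDI2. Its difference was -0.29 (SE 0.10, adjusted p = 0.135, limma), and its further 3 probe sets lay between -0.15 and -0.11.

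**Figure D2:**
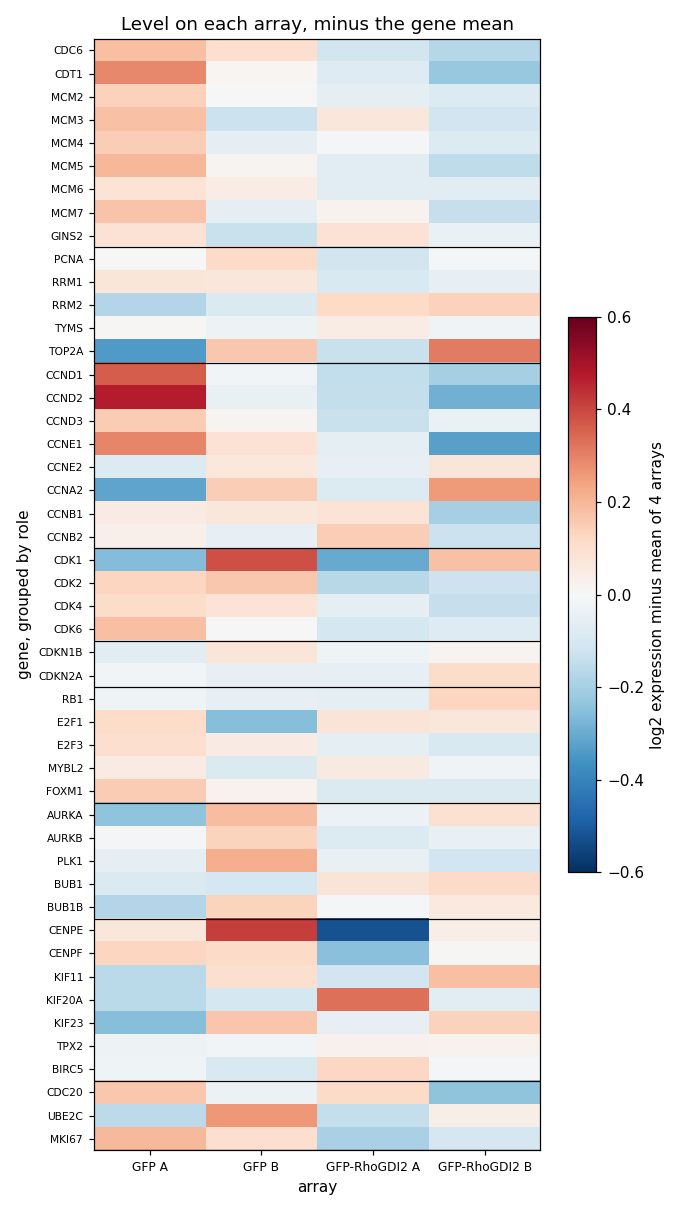
Level of each of the 48 genes on each array minus the mean of that gene over the 4 arrays (log2, colour), with genes in rows grouped by role and arrays in columns. CCND1, CCND2 and CCNE1 are highest on GFP A, and CDK1, TOP2A and CCNA2 are higher on both B arrays than on both A arrays.

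The call on these genes depends on how the variance is modelled. All 48 SEs lay between 0.092 and 0.131, close to what a prior SD of 0.101 shared by all probe sets gives. With an intensity trend, which lets that prior follow the mean level, it ran from 0.0422 for TYMS to 0.146 for CDKN2A, and 16 of the 48 were called, 12 lower and 4 higher. That is 33.3%, where the trend called 23.7% of all genes; 25% were called lower, against 12.2%. The genes called lower were CDC6, CDT1, MCM5, CCND1, CCND2, CCNE1, CDK2, CDK4, CDK6, CENPE, CENPF and MKI67, and those called higher RRM2, TOP2A, BUB1 and KIF20A. The trend fit gave CCND2 an adjusted p of 4.80e-04, RRM2 3.88e-04 and CCNE1 0.00488, all at the same differences as before. With the trend and without the preparation block, RRM2 was the 1 gene called, where 10.5% of all genes were. Without the block alone 0 of the 48 were called, against 5.29% of all genes. With single arrays left out 0 were called, against 3.3% (without GFP A), 3.47% (GFP B), 2.18% (GFP-RhoGDI2 A) and 1.77% (GFP-RhoGDI2 B). With no filter, with a robust prior and with quantile normalization the count was 0, against 3.51%, 7.99% and 7.18%. A filter at the upper quartile kept 47 of the genes and called 9, or 19.1%, against 25.2%, and averaging the probe sets of each gene called 5, or 10.4%, against 16.8%. At an adjusted p under 0.1 CCND2, CCNE1 and CENPE were called, or 6.25%, against 16.3%. At an adjusted p under 0.01, and at 0.05 with at least a 1.5-fold difference, 0 were called, against 2% and 5.2%.

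Between the preparations these genes differed by up to 0.57 in size, against 0.48 between the lines. Over the 48 genes, B minus A in GFP and B minus A in GFP-RhoGDI2 had a Pearson correlation of 0.681, beside 0.331 over all 12123 genes. These describe genes that share arrays. The 48 are mostly at a high level, with 47 at or above the upper quartile of all probe sets (7.04), as were 7442 of the 12123 genes. No comparison with genes of like level was made for this correlation or for the counts below. On the probe sets that stand for them, all 9 genes of the origin licensing group were lower in B than in A in both lines, as 35.3% of all genes were. MCM3 was lower in B by -0.30 in GFP and -0.18 in GFP-RhoGDI2 (B minus A), and CDT1 by -0.28 and -0.15. CDK1 was at 0.65 and 0.48, TOP2A at 0.50 and 0.45, CCNA2 at 0.46 and 0.34 and CENPE at 0.35 and 0.57, all higher in B. In all, 15 genes were higher in B in both lines, against 26.1% of all genes, and 20 lower. Limma called 0 of the 48 and 0 of all genes between the preparations at an adjusted p under 0.05, with 12 of the 48 at an unadjusted p under 0.05, or 25%, against 10% of all genes. With an intensity trend 10 of the 48 were called, or 20.8%, against 1.57%. By promoter letters, 8 of the 9 matched genes with E2F letters were lower in B (median B minus A -0.17), as 55.8% of all genes were. Among them are CDT1, MCM3, MCM6, MCM7 and GINS2 of the origin licensing group, so this count overlaps with that of the group. Of the 11 with TTTGAA, 7 were higher (median 0.10, from -0.28 for CDC20 to 0.57 for CDK1), as 44.2% of all genes were. The 26 genes with CCAAT divided evenly, 13 lower and 13 higher, and of the 8 with none of the letters 5 were lower and 3 higher (median -0.07). For the line difference the medians were -0.12 for E2F letters, -0.13 for TTTGAA, -0.12 for CCAAT and -0.16 for none. The letters were searched with these values known, and no test was made.

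**Figure D3:**
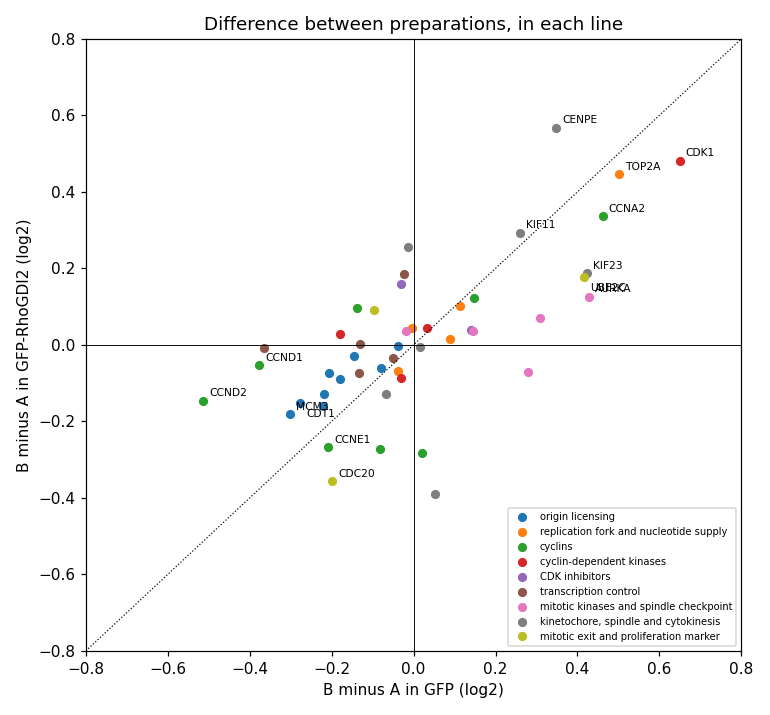
Difference between preparations, B minus A (log2), in GFP (horizontal axis) and in GFP-RhoGDI2 (vertical axis), 1 point for each of the 48 genes, coloured by role, with the dotted line marking equal differences. CDK1, TOP2A, CCNA2 and CENPE lie at the upper right, and the 9 genes of the origin licensing group lie at the lower left.

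Further genes of the pathway, 130 in a list drawn up by role, were set beside these. Of them 123 were tested, 2 rose and 1 fell, where 8.17% of all genes were called. CENPM, a kinetochore protein, rose by 0.62 (SE 0.093, adjusted p = 0.0208, limma), from 9.22 and 8.99 on GFP A and B to 9.81 and 9.64. ANLN, the actin-binding anillin of the cleavage furrow, rose by 0.51 (adjusted p = 0.0328, limma), from 12.14 and 12.30 to 12.66 and 12.80. MCM10, which helps the helicase start, fell by 0.45 (adjusted p = 0.0453, limma), from 10.25 and 9.99 to 9.78 and 9.56. ANLN and MCM10 were not called without the block (adjusted p = 0.0571 and 0.119), while CENPM was (0.0434). MCM10 was also not called, at -0.22, when the _s_at and _x_at probe sets were left out (adjusted p = 0.233), and with quantile normalization it had an adjusted p of 0.0509. With no filter on low values ANLN (0.0630) and MCM10 (0.0931) were not called, and with GFP replicate B, GFP-RhoGDI2 replicate A or GFP-RhoGDI2 replicate B left out none of the 3 was called.

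Of 45 tested genes of origins and the replisome, 28 (62.2%) were lower in both preparations and 4 (8.89%) higher. Of all genes, 37.7% were lower in both and 33.7% higher. Beside -0.01 over all genes, the median of these 45 was -0.12. Those not called with the largest differences were the primase gene PRIM1 (-0.35), the polymerase alpha gene POLA1 (0.34), the checkpoint gene CLSPN (-0.32), the helicase gene CDC45 (0.31) and TIMELESS (-0.30). Of 22 genes of G1/S control 0 were called, with 4 at an unadjusted p under 0.05 in limma, where 27.1% of all genes were, and a median of -0.10. There CDC25A, the phosphatase that activates CDK2, differed by -0.39 (adjusted p = 0.0673), the CDK inhibitor gene CDKN1A by 0.36 (0.0783) and RBL2, the RB1 relative p130, by 0.31 (0.107). LIN52 and LIN37, subunits of the MuvB complex, differed by -0.25 and 0.21 and E2F4 by -0.20. LIN37 was at -0.10 without the _s_at and _x_at probe sets. Of 56 genes of G2 and mitosis, 24 (42.9%) were higher in both preparations and 13 (23.2%) lower, against 33.7% and 37.7% of all genes. Their median was 0.03. SPC24 differed by 0.44, TACC3 by -0.38, NCAPD2 by -0.35 and PBK by 0.35, none of them called.

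**Figure D4:**
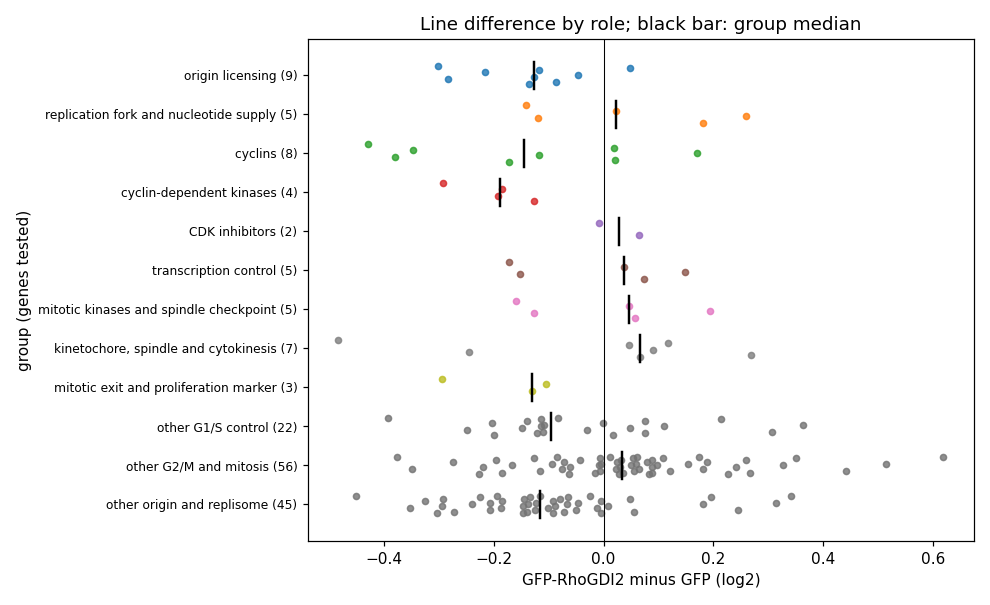
Difference between GFP-RhoGDI2 and GFP (log2, horizontal axis) for each gene, in rows by role with the number of tested genes; coloured points are the 48 genes, grey points the other genes of the pathway, and black bars medians. The medians of origin licensing (-0.13), of the other origin and replisome genes (-0.12) and of the CDKs (-0.19) lie below 0. So do those of cyclins (-0.14), mitotic exit and proliferation marker (-0.13) and other G1/S control (-0.10). That of other G2 and mitosis genes is 0.03, and the remaining medians lie above 0.

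Where a gene had several tested probe sets they often differed by as much as the lines did. Of 30 such genes, all probe sets had 1 sign in 20 and both signs in 10. Some opposite signs came from weak probe sets, as in CDK2 (mean level 4.88) and MCM6 (5.47). Others came from strong ones, as in CDK1 (11.17) and RRM1 (10.59). All tested probe sets of CDC6, CDT1, MCM5, MCM7, CCND1, CCNB1, E2F3, AURKB, CENPF and MKI67 were lower in GFP-RhoGDI2. Those of RRM2, TYMS, TOP2A, CCNE2, CCNA2, CCNB2, RB1, E2F1, AURKA and KIF23 were all higher, so the genes of 1 sign divided evenly. Those of CCND2 ran from -0.55 to 0.00, of BUB1 from -0.02 to 0.33 and of MCM4 from -0.09 to 0.13. Of the 100 tested probe sets of these genes, 2 were called, those of CENPE and CCND2 named above, where 7.64% of all 27307 tested probe sets were.

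**Figure D5:**
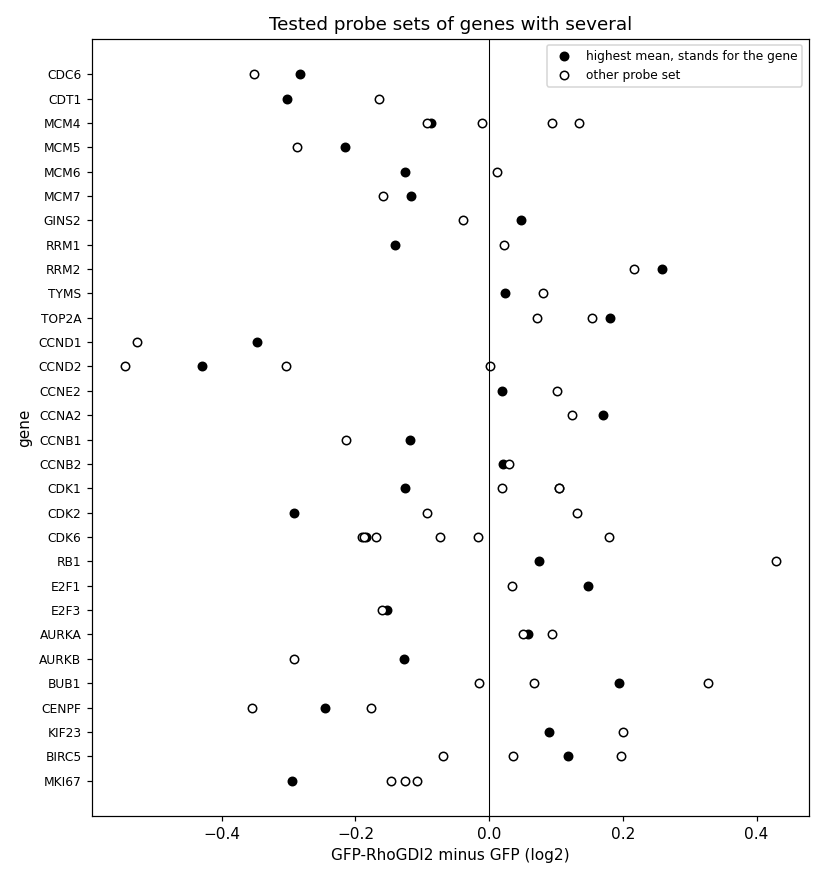
Difference between GFP-RhoGDI2 and GFP (log2, horizontal axis) for every tested probe set of the 30 genes with several, in rows; filled points are the probe set that stands for the gene, open points the others. In 10 genes, among them CDK2, CDK6 and MCM4, points lie on both sides of 0.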

How the data were processed

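Total RNA of 4 samples was hybridised to Affymetrix HG-U133 Plus 2.0 arrays. The deposited values are log2 expression per probe set, to which the authors applied RMA, as the submitters' processing notes name it; the sources used here do not state the software, its version or which arrays were normalized as 1 set. Array medians were 4.62 to 4.65, and no further normalization was applied. Of 54675 probe sets, 62 controls were left out, and the 27307 with a mean at or above the median mean (4.637) were tested, covering 12123 genes. GEO's platform annotation gave 41091 of the 54613 non-control probe sets 1 gene, 1801 several (not used for names), and 11721 are unnamed here.

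Lines were compared with limma 3.58.1 (R 4.3.3), preparation entering as a block because the labels state the pairing, with Benjamini-Hochberg adjustment over all tested probe sets, called under 0.05. Moderation added 4.71 degrees of freedom to the 1 left by the arrays. Between the lines, B minus A correlated at r = 0.264 over tested probe sets. The number of arrays limits the precision. Every gene on the list is described; from each further list the called genes and those with the largest differences are named, 6 in all. Members, lists and tests were chosen with earlier results of these data known. Alternatives were no block, each array left out, other filters, variance priors, normalizations, probe set rules and thresholds; the trend without block and the middle probe set were added after seeing the data.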

Additional observations from a re-analysis of the deposited data

How the results depend on the processing

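With 2 arrays a line and 1 residual degree of freedom, most differences here (median size 0.133) were far below that of CENPE, which was just past the threshold, and no detection calls were used. Without the replicate block 641 genes were called and 0 of the 48 cell cycle and replication genes; with single arrays left out and no block, 215 to 421 and 0. Of the 48, 0 were called with no filter on low values, with a robust prior, with quantile normalization again, at an adjusted p under 0.01 (243 genes in all) and with at least 1.5-fold (631 in all); for CENPE these include adjusted p of 0.0512 with the robust prior and 0.0599 with quantile normalization. With the filter at the upper quartile 9 were called (1876 in all), with the intensity trend 16 (2879), with the mean of probe sets 5 (2031) and at an adjusted p under 0.1 3 (1971). CENPE was called in 6 of 14 alternative fits, with adjusted p from 5.86e-04 to 0.658, and was also not called with the trend and no block, a fit added after seeing the data and not among the 14. The median of the 48 ran from -0.117 to -0.0624 with single arrays left out, and was -0.0585 with the mean of probe sets and also with the middle probe set of each gene, and -0.0431 without _s_at and _x_at probe sets. The cause of these shifts was not tested.

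The fits with 1 array left out had no block, so 1 preparation of a line was set against both of the other. Differences between preparations therefore enter them. TOP2A changed sign in these fits, although the lines differed by 0.21 in A and 0.15 in B. Its B minus A was 0.47. With single arrays left out, 27 of the 48 kept their sign and 21 did not. The ranges of the latter were -0.157 to 0.272 for AURKA, -0.109 to 0.201 for BUB1B, -0.0601 to 0.401 for CCNA2, -0.259 to 0.0239 for CCNB1, -0.117 to 0.157 for CCNB2, -0.0543 to 0.0934 for CCNE2, -0.308 to 0.0490 for CDC20, -0.451 to 0.198 for CDK1, -0.0789 to 0.0618 for CDKN1B, -0.0150 to 0.144 for CDKN2A, -0.0347 to 0.331 for E2F1, -0.0618 to 0.156 for GINS2, -0.0807 to 0.212 for KIF11, -0.122 to 0.301 for KIF23, -0.198 to 0.103 for MCM3, -0.191 to 0.0163 for MCM4, -0.0303 to 0.103 for MYBL2, -0.0186 to 0.166 for RB1, -0.0696 to 0.431 for TOP2A, -0.0109 to 0.0576 for TYMS and -0.312 to 0.103 for UBE2C. Median centring turned CCNB2 to -0.0053, CCNE2 to -0.0058 and TYMS to -0.0021. The mean of probe sets turned CDK1 to 0.0253 and MCM4 to 0.0070, and leaving out _s_at and _x_at probe sets turned GINS2 to -0.0386 and LIN37 to -0.0966.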
